A study of Drosophila melanogaster with 6 samples.

Results

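The 26S proteasome is the protease that removes ubiquitin-tagged proteins from eukaryotic cells. Its core particle is a barrel of stacked rings, with alpha subunits forming the outer rings that gate the channel and beta subunits forming the inner rings that hold the proteolytic sites. The regulatory particle caps the barrel: its base carries the Rpt ATPases, which unfold and thread substrates, and its lid carries the subunit that cuts the ubiquitin chain off. In Drosophila several subunits also have paralogs that are known for expression in the male germ line, among them Prosalpha6T, which is needed for male fertility.

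Proteasome subunit genes were read from a microarray study of Tip60, a histone acetyltransferase (HAT) of the MYST family, in whole larvae. The members were the probe sets of the Affymetrix Drosophila Genome 2.0 array that carry exactly 1 gene symbol, where that symbol begins with Prosalpha, Prosbeta, Rpn or Rpt, the last pair followed by a digit. The rule used no measured value except to take the brightest probe set of a gene, and it found 40 genes on 40 probe sets, out of 11982 genes with a single-symbol probe set. These were 12 core particle subunits (Prosalpha2 to Prosalpha7 and Prosbeta2 to Prosbeta7), 14 regulatory particle subunits (Rpt2, Rpt3, Rpt4, Rpt5, Rpn1, Rpn2, Rpn13, Rpn3, Rpn5, Rpn6, Rpn7, Rpn8, Rpn11 and Rpn12) and 14 paralogs. One further matching probe set, shared by several symbols, was left out, and subunits that no such probe set named were not analysed here.

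The 3 genotypes were dTIP60E431Q, dTIP60WT and control, with 2 arrays each, and each array was probed with RNA of 1 pool of 35 whole larvae that were 3 days old and kept at 25 °C. dTIP60E431Q larvae expressed a UAS transgene whose product carries a substitution in the catalytic domain that is meant to remove the acetyltransferase activity. dTIP60WT larvae expressed the unmutated protein, and control larvae came from w1118 flies without a transgene. Flies of each genotype were crossed to flies of the ubiquitous driver 337-GAL4, so every larva carried that driver and its own Tip60 gene. Each transgene was represented by 1 insertion line (line B). The study describes dTIP60E431Q line B as lethal with this driver late in the second instar. Its authors collected the larvae before lethality, to avoid changes tied to tissue necrosis. The dTIP60E431Q larvae were thus collected close to the stage at which they die.

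Values are the deposited normalized intensities, in arbitrary units, and differences are on the log2 scale. A gene was called changed when its adjusted p was below 0.05 in limma, fitted to all 18769 probe sets of the 6 arrays with Benjamini-Hochberg adjustment over all of them. With 2 arrays a genotype the fit had 3 residual degrees of freedom. Intensities of different probe sets were not compared as levels of their genes, since a probe set's brightness depends on its probes.

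Tip60 itself had intensities of 5172 and 5464 in dTIP60E431Q, 3045 and 2755 in dTIP60WT and 30.8 and 29.2 in control larvae. The transgenes were therefore visible in the arrays that carry their labels, and dTIP60E431Q lay above dTIP60WT by 0.88 on the log2 scale (adjusted p = 0.0142, limma). Replicate arrays correlated over all probe sets with Pearson's r of 0.967 in dTIP60E431Q, 0.964 in dTIP60WT and 0.961 in control larvae. Array medians were 51.5 and 51.9 in dTIP60E431Q, 43.8 and 45.2 in dTIP60WT and 44.4 and 43.6 in control larvae. Among whole-larva markers, the 3 fat body genes summed to 169 and 161 in dTIP60E431Q, 20209 and 20166 in dTIP60WT and 26054 and 18982 in control larvae, and the 3 midgut genes to 10707 and 10727 in dTIP60E431Q, 5209 and 5642 in dTIP60WT and 6778 and 6606 in control larvae. Between dTIP60E431Q and control, Lsp2 and Fbp2 were called lower. Fbp1 was not, and its pools were split at 1329 and 7.09 in control and 5.01 and 1015 in dTIP60WT larvae. Of the midgut genes alphaTry was called higher, and LManI and betaTry were not called. Markers of muscle summed to 7565 and 7754 in dTIP60E431Q against 9162 and 9429.7 in control larvae, where up was at −0.33 and Mlc2 at 0.41 and neither was called, while those of neurons (352 and 355 against 369.7 and 353) and hemocytes (478 and 529.8 against 600.04 and 499.8) lay closer together. The 3 salivary glue genes summed to 800.02 in dTIP60WT replicate 2 and 586 in control replicate 1, against 19.3 to 28.4 on the other arrays. The part of these tissue and stage markers in the proteasome values was not tested. In RNA of whole larvae fewer cells of a type and less RNA per cell cannot be told apart. The larvae were matched by age in days, so a difference in developmental stage between dTIP60E431Q and the other larvae cannot be told apart from genotype. This holds for every dTIP60E431Q difference below.

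All 26 core and regulatory subunits were lower in dTIP60E431Q than in control larvae on every array. The 2 dTIP60E431Q arrays lay below both control arrays for each of the 26, a pattern that 30.3% of all probe sets showed. The fit called 20 of the 26 lower and 0 higher, where 11.7% of all probe sets were called lower and 11.9% higher. Among the 2030 probe sets with a mean level within the range of the 26 subunits, 33.9% were called lower. The median log2 difference was −0.66 over the 26 subunits, which is 63.2% of the control level, against 0.04 over all probe sets and −0.18 over those in the same range of level. Dividing each array by its median shifted every dTIP60E431Q difference by −0.23, which put the median of all probe sets at −0.20 and that of the 26 at −0.89, and turned 2194 lower and 2238 higher calls over all probe sets into 3172 and 1547. dTIP60WT larvae stayed within −0.06 and 0.08 of control larvae on the log2 scale for all 26 subunits, and 0 of 26 were called.

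**Figure D1:**
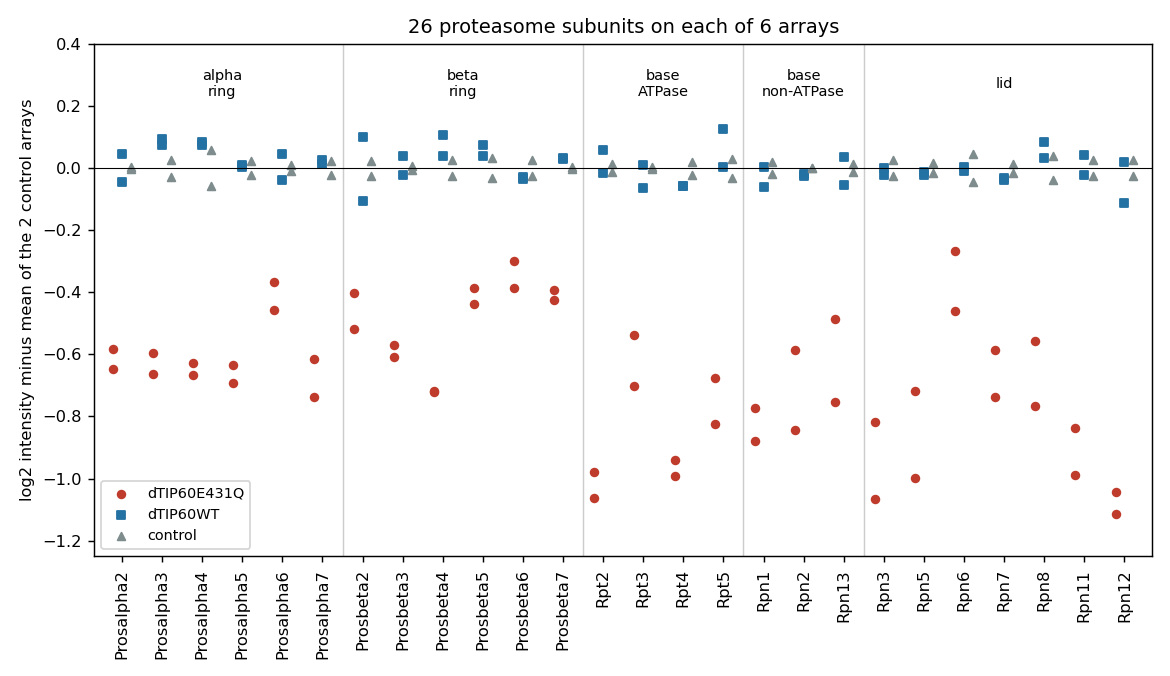
Log2 intensity of each of the 26 proteasome subunits on each array, minus the mean of the 2 control arrays, by gene and grouped by position in the complex. Circles are dTIP60E431Q, squares dTIP60WT and triangles control arrays; the dTIP60E431Q points lie between −1.11 and −0.27, and all other points between −0.11 and 0.13.

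Of the 6 measured alpha subunits 5 were called lower. Prosalpha7 had intensities of 796 and 866 in dTIP60E431Q, 1338 and 1351 in dTIP60WT and 1306 and 1346 in control larvae, a difference of −0.68 ± 0.12 (SE) between dTIP60E431Q and control (adjusted p = 0.0231, limma). Prosalpha5 had 1037 and 1078 in dTIP60E431Q, 1688 and 1679 in dTIP60WT and 1648 and 1701 in control larvae, a difference of −0.66 (adjusted p = 0.0217). Prosalpha4 read 749 and 729 in dTIP60E431Q, 1227 and 1219 in dTIP60WT and 1112 and 1206 in control larvae (−0.65, adjusted p = 0.0249). In these 3 genes the dTIP60E431Q arrays stood clear below those of both other genotypes. Prosalpha3, whose amino terminus is part of the gate of the channel in yeast, had 894 and 854 in dTIP60E431Q, 1442 and 1422 in dTIP60WT and 1326 and 1377 in control larvae (−0.63, adjusted p = 0.0247). Prosalpha2 was close to it, with 959 and 1001 in dTIP60E431Q, 1456 and 1548 in dTIP60WT and 1504 and 1497 in control larvae (−0.61, adjusted p = 0.0271). Prosalpha6 was the 1 alpha subunit not called. Its intensities were 832 and 886 in dTIP60E431Q, 1111 and 1179.6 in dTIP60WT and 1134 and 1149 in control larvae, a difference of −0.41 with a 95% interval of −0.72 to −0.10 (adjusted p = 0.0728). The median of the 6 alpha differences was −0.64.

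The beta ring had a median difference of −0.44, and 2 of its 6 subunits were called lower. The ranges of the rings overlapped, at −0.72 to −0.34 for beta and −0.68 to −0.41 for alpha subunits, and the difference between the rings was not tested. Prosbeta4, a structural subunit, read 788 and 787 in dTIP60E431Q, 1331 and 1396 in dTIP60WT and 1273 and 1321 in control larvae, which made it the core subunit with the largest difference (−0.72 ± 0.11 SE, adjusted p = 0.0185, limma). Prosbeta3, also structural, read 1179.8 and 1147 in dTIP60E431Q, 1724 and 1798 in dTIP60WT and 1742 and 1758 in control larvae (−0.59, adjusted p = 0.0283). The 2 measured catalytic subunits did not pass the threshold. Prosbeta5, which carries the chymotrypsin-like site, had 1037 and 1075 in dTIP60E431Q, 1442 and 1479 in dTIP60WT and 1373 and 1437 in control larvae (−0.41, 95% interval −0.72 to −0.11, adjusted p = 0.0675). Prosbeta2, which carries the trypsin-like site, had 842 and 913 in dTIP60E431Q, 1119.6 and 1293 in dTIP60WT and 1186 and 1226 in control larvae (−0.46, 95% interval −0.82 to −0.10, adjusted p = 0.0795). Both of these still had dTIP60E431Q arrays below every other array. Prosbeta7 had 1266 and 1293 in dTIP60E431Q, 1734 and 1737 in dTIP60WT and 1703 and 1694 in control larvae (−0.41, adjusted p = 0.0639). Prosbeta6, the gene of a classical dominant temperature-sensitive proteasome mutation in Drosophila, had 973 and 916 in dTIP60E431Q, 1168 and 1173 in dTIP60WT and 1177 and 1218 in control larvae, the smallest difference of the 26 (−0.34, 95% interval −0.65 to −0.04, adjusted p = 0.104).

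All 4 measured ATPases of the base were called lower, with a median of −0.86. Rpt2, whose tail opens the gate of the core particle in yeast, had intensities of 298 and 315 in dTIP60E431Q, 616 and 648 in dTIP60WT and 616 and 628 in control larvae (−1.02 ± 0.12 SE, adjusted p = 0.0101, limma). Rpt4 had 402 and 416 in dTIP60E431Q, 769 and 769 in dTIP60WT and 788 and 812 in control larvae (−0.97 ± 0.11 SE, adjusted p = 0.0103). For these 2 ATPases the dTIP60E431Q signal was close to 1 log2 unit below control. Rpt5 had 316 and 350.4 in dTIP60E431Q, 561 and 610.3 in dTIP60WT and 548 and 572 in control larvae (−0.75, adjusted p = 0.0223). Rpt3 had 727 and 816 in dTIP60E431Q, 1132 and 1191 in dTIP60WT and 1187 and 1180.1 in control larvae (−0.62, adjusted p = 0.0327). The base also holds non-ATPase subunits, and all 3 that were measured were called lower. Rpn1, a scaffold that docks ubiquitin receptors and Usp14, had 246 and 266 in dTIP60E431Q, 454 and 435 in dTIP60WT and 459.9 and 447 in control larvae (−0.83, adjusted p = 0.0152). Rpn2, the scaffold that holds Rpn13, had 539 and 645 in dTIP60E431Q, 956 and 950.3 in dTIP60WT and 968 and 968 in control larvae (−0.71, adjusted p = 0.0301). Rpn13, a ubiquitin receptor, had 518 and 623 in dTIP60E431Q, 839.6 and 894 in dTIP60WT and 864 and 881 in control larvae (−0.62, adjusted p = 0.046). For Rpn2 and Rpn13 dTIP60E431Q replicate 1 was clearly the lower of its pair.

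The lid held both the largest difference of the 26 and one of the smallest. Rpn12 had 399 and 419 in dTIP60E431Q, 799 and 877 in dTIP60WT and 879.5 and 849 in control larvae (−1.08 ± 0.12 SE, adjusted p = 0.00997, limma). Rpn11, the deubiquitinase of the lid, had 569 and 633 in dTIP60E431Q, 1113 and 1162 in dTIP60WT and 1149.9 and 1109.7 in control larvae (−0.91 ± 0.12 SE, adjusted p = 0.0138). Its partner Rpn8 had 444 and 514 in dTIP60E431Q, 773 and 802 in dTIP60WT and 776 and 736 in control larvae (−0.66, adjusted p = 0.0327). All 3 were called lower, and in each the dTIP60WT arrays overlapped the control arrays. The remaining lid genes encode scaffold subunits with a PCI domain. Rpn3 had 369 and 437 in dTIP60E431Q, 761 and 772 in dTIP60WT and 786 and 758 in control larvae (−0.94, adjusted p = 0.0162). Rpn5 had 630.4 and 765 in dTIP60E431Q, 1239 and 1250.3 in dTIP60WT and 1274 and 1246 in control larvae (−0.86, adjusted p = 0.0215). Rpn7 had 349 and 387 in dTIP60E431Q, 569 and 566 in dTIP60WT and 575 and 587 in control larvae (−0.66, adjusted p = 0.0257). The exception was Rpn6, the scaffold that clamps the lid to the core particle. It had 1007 and 1151 in dTIP60E431Q, 1387 and 1375 in dTIP60WT and 1341 and 1429 in control larvae, and its difference of −0.36 was not called (95% interval −0.71 to −0.01, adjusted p = 0.124). The probe sets of Rpn6, Rpn13, Prosbeta5 and Prosbeta7 are of the array's class that may also match transcripts of other genes.

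By particle, 7 of 12 core subunits and 13 of 14 regulatory subunits were called lower in dTIP60E431Q. The median log2 difference was −0.60 for the core particle (range −0.72 to −0.34, median 65.9% of control) and −0.79 for the regulatory particle (range −1.08 to −0.36, median 57.9% of control). Of the 10 genes with the largest differences 9 were regulatory subunits, and of the 6 with the smallest 5 were core subunits. Only Rpn12 and Rpt2 passed a call that also asked for a fold of at least 2, which 5.99% of all probe sets did in the lower direction. The distance between the particles differed between the 2 dTIP60E431Q pools. Set against the control mean, the core median was −0.58 in replicate 1 and −0.60 in replicate 2, while the regulatory median was −0.86 in replicate 1 and −0.70 in replicate 2. The core minus regulatory distance was thus 0.28 and 0.10 in dTIP60E431Q, against 0.03 and 0.04 in dTIP60WT and −0.03 and 0.03 in control larvae. All 14 regulatory subunits read lower in dTIP60E431Q replicate 1 than in replicate 2, and 7 of 12 core subunits did. No test of the distance was made, and with 2 arrays against 2 an exact permutation test cannot go below p = 0.33. The brightness of the probe sets also differed, with a median control intensity of 832.1 for the regulatory particle (range 453.6 to 1385.0) and 1338.9 for the core particle (range 1141.8 to 1749.9), ranges that overlapped. Over the 26 genes the control log2 level and the dTIP60E431Q difference had a Pearson's r of 0.53 and a Spearman's rho of 0.58, within the 12 core genes −0.17 and −0.06, and within the 14 regulatory genes 0.30 and 0.26. These are correlations across genes that share the same 6 arrays, given as a description, and the part of probe brightness in the difference between the particles was not tested.

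**Figure D2:**
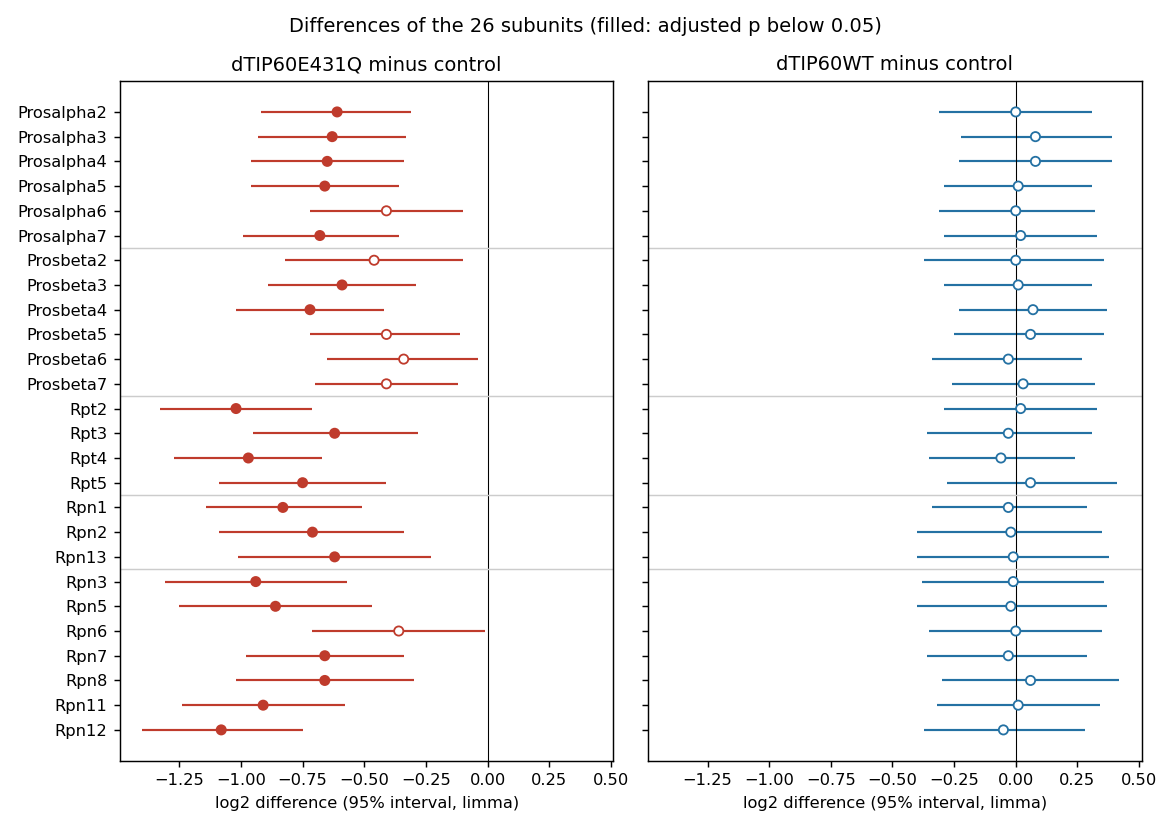
Log2 difference of each of the 26 subunits for dTIP60E431Q minus control (left) and dTIP60WT minus control (right), with 95% limma intervals; filled circles passed an adjusted p of 0.05, and grey lines part the alpha ring, beta ring, base ATPases, other base subunits and lid. On the left all estimates lie between −1.08 and −0.34, and on the right between −0.06 and 0.08.

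The comparison of dTIP60WT with control larvae asked whether more of the unmutated protein alone moved these genes. Of the 26 subunits 12 lay below and 14 above the control level, with a median difference of 0.00, and the widest 95% intervals reached −0.40 and 0.42. None was called (limma, every adjusted p = 1), and 0 of the 26 had an unadjusted p below 0.05, where 1051 of all probe sets did. Over all probe sets 0.00533% were called higher, which was Tip60 alone, and 0% lower. The arrays did not overlap upward for 5 subunits, all in the core particle, and downward for 4, against 16.3% of all probe sets in each direction. The largest estimates were Prosalpha3 (0.08, 95% interval −0.22 to 0.39) and Prosalpha4 (0.08, −0.23 to 0.39), and the lowest Rpt4 (−0.06, −0.35 to 0.24). Changes as large as those of Rpn12 and Rpt2 in dTIP60E431Q larvae lay outside the dTIP60WT intervals of the same genes (−0.37 to 0.28 and −0.29 to 0.33).

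Set against dTIP60WT instead of control, dTIP60E431Q larvae had 26 of 26 subunits lower and non-overlapping, a pattern found in 30.9% of all probe sets. The fit called 21 of the 26 lower, 8 in the core and 13 in the regulatory particle, where 11.7% of all probe sets were called lower and 12.2% higher. Medians were −0.61 for the core and −0.81 for the regulatory particle. The extra call was Prosbeta5 (−0.47, adjusted p = 0.0493, limma). The largest differences were again those of Rpt2 (−1.04, adjusted p = 0.00879) and Rpn12 (−1.03, adjusted p = 0.00985). This comparison uses the same dTIP60E431Q arrays as the one with control larvae, and the dTIP60WT and dTIP60E431Q comparisons use the same control arrays, so none of them is independent of the others.

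The direction held for all 26 subunits in each of the 16 fits that were made, but the count of calls did not. For each of the 26 the dTIP60E431Q arrays lay below every control and dTIP60WT array, so leaving out 1 array could not change a sign. Only median scaling and quantile normalization could have changed it. Without control replicate 1 or control replicate 2 the fit called 0 of the 26, without dTIP60E431Q replicate 1 it called 1, without dTIP60E431Q replicate 2 it called 6, and without either dTIP60WT array, whose spread enters the fit, 7.

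The 26 subunits varied little within a genotype. The median absolute log2 difference between replicate arrays was 0.10 in dTIP60E431Q, 0.04 in dTIP60WT and 0.04 in control larvae, against 0.26, 0.23 and 0.23 over all probe sets. Mean levels of the 26 lay at the 84.6 (Rpn1) to 95.4 (Prosbeta7) percentile, and no spread was taken over other probe sets of that level. The 14 paralogs had mean levels at the 8.35 to 53.6 percentile of all probe sets and varied more, with replicate differences of 0.45 in dTIP60E431Q, 0.48 in dTIP60WT and 0.42 in control larvae. Their intensities spanned 2.13 to 91.0, and 11 to 14 of the 14 were below the median of their array. Of the 14, 6 had at least 1 array below 11.5, the 20th percentile of all intensities, and Prosalpha4T1 had all 6 there, while Rpn12R and Prosbeta2R1 had none. Detection calls were not among the values used here, so it is not known which of these signals stood above background.

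**Figure D3:**
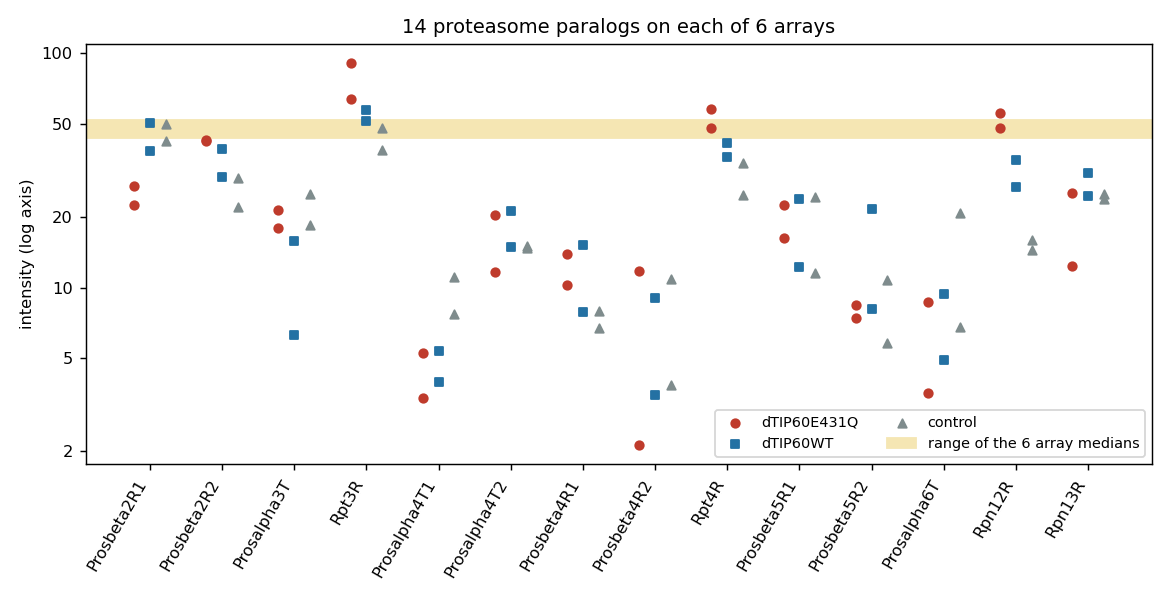
Intensity of the 14 paralogs on each array, on a log axis, with dTIP60E431Q (circles), dTIP60WT (squares) and control (triangles) side by side; the band spans the 6 array medians, 43.6 to 51.9. Rpn12R stands highest in dTIP60E431Q and lowest in control, and most other values lie below the band.

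The paralogs did not move together. Their median log2 difference between dTIP60E431Q and control was 0.02 as deposited, −0.21 after median scaling and −0.06 after quantile normalization, so its sign depended on the scaling. The range was −1.14 to 1.77, and 8 of 14 lay at or above 0. The fit called 1 higher and 1 lower, where 7.69% of the 8496 probe sets in the same range of level were called higher and 3.74% lower. The dTIP60E431Q arrays lay above both control arrays for 5 of the 14, and 33.8% of all probe sets did so. Against its namesake in the 26S complex, the paralog had the higher difference in 11 of 14 pairs. Every namesake is one of the 26 subunits that read lower, and some namesakes enter more than 1 pair. Probe sets in the paralogs' range of level had a median difference of 0.12, so this count mostly restates the lower values of the 26.

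Rpn12R, the paralog of the lid subunit Rpn12, was the gene called higher. Its probe set read 48.0 and 55.8 in dTIP60E431Q, 26.8 and 35.1 in dTIP60WT and 16 and 14.5 in control larvae. The 3 genotypes did not overlap, and dTIP60WT lay between the others. The difference between dTIP60E431Q and control was 1.77 ± 0.19 (SE, adjusted p = 0.00938, limma), and that between dTIP60WT and control 1.01 (adjusted p = 0.564), which was not called. The call between dTIP60E431Q and control held in 12 of 15 alternative fits. Rpn12 itself, as given above, had the largest difference in the other direction. The Rpn12R probe set too may match transcripts of other genes.

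Prosbeta2R1, a paralog of the trypsin-like subunit, was the gene called lower. It had 27.2 and 22.4 in dTIP60E431Q, 50.4 and 38.3 in dTIP60WT and 42.3 and 49.95 in control larvae (−0.89, adjusted p = 0.0473, limma), and the call held in 6 of 15 alternative fits. The second paralog of the same subunit, Prosbeta2R2, had 42.8 and 42.1 in dTIP60E431Q, 29.6 and 39.2 in dTIP60WT and 29.5 and 22.2 in control larvae (0.73, adjusted p = 0.0842). The pair thus had estimates of opposite sign, of which only that of Prosbeta2R1 passed the test. The ATPase paralogs Rpt3R and Rpt4R read above control without a call. Rpt3R had 64.1 and 91.0 in dTIP60E431Q, 57.2 and 51.5 in dTIP60WT and 38.9 and 48.0 in control larvae (0.82, adjusted p = 0.071). Rpt4R had 48.0 and 57.7 in dTIP60E431Q, 36.0 and 41.6 in dTIP60WT and 24.9 and 34.1 in control larvae (0.85, adjusted p = 0.0575). Rpt3 and Rpt4, their namesakes, were both called lower.

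None of the alpha paralogs was called. Prosalpha4T1 had 5.25 and 3.39 in dTIP60E431Q, 3.95 and 5.35 in dTIP60WT and 11.1 and 7.72 in control larvae (−1.14, adjusted p = 0.0769). Prosalpha6T had 3.53 and 8.69 in dTIP60E431Q, 4.89 and 9.35 in dTIP60WT and 20.8 and 6.77 in control larvae (−1.10, 95% interval −3.16 to 0.97). For Prosalpha6T control replicate 1 stood apart from the other 5 arrays. Prosalpha3T and Prosalpha4T2 had estimates of −0.13 and 0.04 with overlapping arrays. The other paralogs, 4 of beta subunits and 1 of the base subunit Rpn13, Prosbeta4R1 (0.72), Prosbeta4R2 (−0.37), Prosbeta5R1 (0.20), Prosbeta5R2 (0.00) and Rpn13R (−0.46), had intervals that spanned 0 and adjusted p of 0.248 or more. In Prosbeta4R2 the 2 arrays of a genotype differed more than the genotypes did, at 11.8 and 2.13 in dTIP60E431Q, 9.03 and 3.47 in dTIP60WT and 10.8 and 3.84 in control larvae. No paralog was called between dTIP60E431Q and dTIP60WT, where Rpn12R had 0.75 (adjusted p = 0.0552) and Prosbeta2R1 −0.83 (adjusted p = 0.056).

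Because these paralogs are known from testis, 14 testis genes were read beside them. Their intensities summed to 961 and 1161 in dTIP60E431Q, 668 and 794 in dTIP60WT and 651 and 697 in control larvae. Mst98Ca alone made up 368 and 385, 165 and 144, and 181 and 177 of these sums, a large part of the difference between them. As deposited all 14 had a difference above 0 between dTIP60E431Q and control, with a median of 0.52, which was 0.29 after median scaling and 0.31 after quantile normalization. Over all probe sets the deposited median was 0.04. The estimates of comr (0.10), bam (0.10) and dj (0.13) were smaller in size than the median scaling shift of −0.23, so not all 14 stayed above 0. Only Mst98Ca, a male germ line gene, was called higher (368 and 385 in dTIP60E431Q, 165 and 144 in dTIP60WT and 181 and 177 in control larvae, 1.07, adjusted p = 0.0111, limma). None of the 7 regulators of spermatocyte transcription in the list was called. Among them aly had 24.6 and 38.3 in dTIP60E431Q, 13.98 and 18.9 in dTIP60WT and 10.8 and 20.9 in control larvae, and mia had 226 and 207 in dTIP60E431Q, 159 and 176 in dTIP60WT and 151 and 182 in control larvae. Among germ line genes osk was called higher (34.4 and 51.0 in dTIP60E431Q, 7.92 and 9.67 in dTIP60WT and 2.35 and 6.20 in control larvae, adjusted p = 0.0175), and vas was not (0.98, adjusted p = 0.265). Both dTIP60WT arrays and both control arrays of osk lay below 11.5, so no fold is given for it. The part of gonad content in the Rpn12R value was not tested.

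Genes that work with the proteasome were read next, in 6 lists with 37 measured members. In dTIP60E431Q against control 10 of the 37 were called lower and 2 higher, with a median difference of −0.25, where the background is the 11.7% and 11.9% given above. In the range of level of the 26 subunits lay 15 of the 37, of which 6 were called lower, beside 33.9% of all probe sets in that range. In dTIP60WT against control 0 of 37 were called. Of the factors that assemble or bind the proteasome 4 of 8 were called lower. Sem1, a small subunit of the lid, had intensities of 612 and 692 in dTIP60E431Q, 1385 and 1382 in dTIP60WT and 1281 and 1294 in control larvae (−0.98, adjusted p = 0.0119, limma). Pomp, the chaperone of core particle assembly, had 432 and 485 in dTIP60E431Q, 874 and 894 in dTIP60WT and 863 and 798 in control larvae (−0.86, adjusted p = 0.017). Both differences were within the range of the 26 subunits. The deubiquitinases that dock on the base were called lower too, Usp14 with 599.6 and 638 in dTIP60E431Q, 1068 and 1095 in dTIP60WT and 1038 and 1088 in control larvae (−0.78, adjusted p = 0.0166) and Uch-L5 with 275 and 274 in dTIP60E431Q, 392 and 473 in dTIP60WT and 417 and 419 in control larvae (−0.60, adjusted p = 0.0461). REG, an activator that binds the core particle without the base, was at −0.25 (adjusted p = 0.201), the shuttle factor Rad23 at −0.31 (adjusted p = 0.248), and PI31 and rngo both at 0.02, none of them called.

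**Figure D4:**
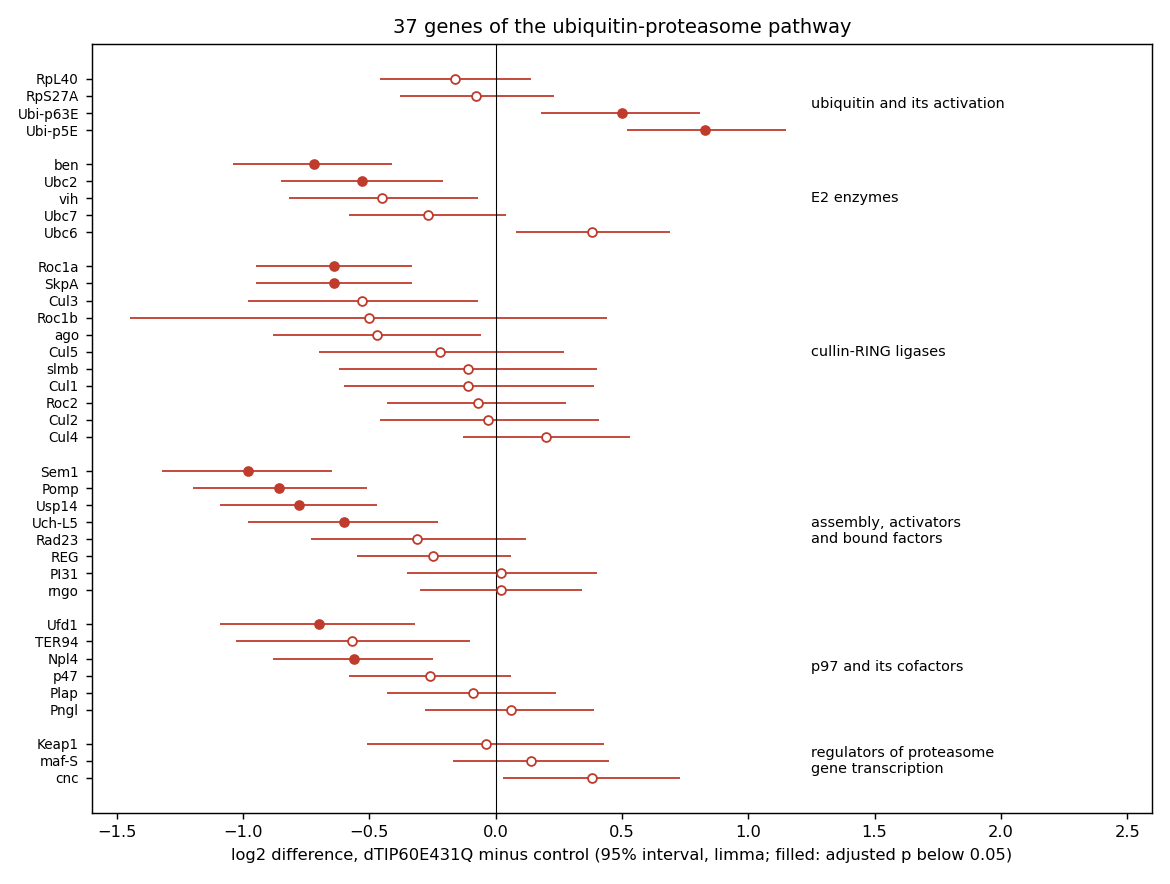
Log2 difference between dTIP60E431Q and control for 37 genes that make, attach, deliver or remove ubiquitin or act on the proteasome, by list, with 95% limma intervals; filled circles passed an adjusted p of 0.05. The 10 genes called lower lie between −0.98 and −0.53, and the 2 polyubiquitin genes lie at 0.50 and 0.83.

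The ubiquitin genes themselves did not follow the subunits. Ubi-p5E, which encodes polyubiquitin, had 2946 and 3066 in dTIP60E431Q, 1788 and 1929 in dTIP60WT and 1694 and 1676 in control larvae and was called higher (0.83 ± 0.12 SE, adjusted p = 0.0148, limma). Ubi-p63E, the second polyubiquitin gene, had 3494 and 3699 in dTIP60E431Q, 2697 and 2622 in dTIP60WT and 2479 and 2625 in control larvae and was called higher as deposited (0.50, adjusted p = 0.0467), but not after median scaling (0.26, adjusted p = 0.21). Both polyubiquitin genes kept a positive difference under median scaling and quantile normalization. The Ubi-p63E probe set is of the class that may also match transcripts of other genes, so its reading may not be of that gene alone. Among the genes of these lists the same holds for the probe sets of PI31, Ubc2, SkpA, Cul1, Cul2, Cul3, cnc and Keap1. The ubiquitin fusion genes RpL40 (−0.16) and RpS27A (−0.08), which supply ubiquitin fused to a ribosomal protein, were not called, and their sign turned positive with quantile normalization (0.09 and 0.06).

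Among 5 ubiquitin-conjugating enzymes ben (bendless) was called lower (844 and 872 in dTIP60E431Q, 1418 and 1374 in dTIP60WT and 1473 and 1362 in control larvae, −0.72, adjusted p = 0.0201), as was Ubc2 (−0.53, adjusted p = 0.0433). Ubc6 had the 1 positive estimate of the list (0.38, adjusted p = 0.0787) and was not called. Of 11 genes of cullin-RING ligases the adaptor SkpA (1609 and 1495 in dTIP60E431Q, 2511 and 2452 in dTIP60WT and 2410.2 and 2428 in control larvae, −0.64, adjusted p = 0.0249) and the RING subunit Roc1a (−0.64, adjusted p = 0.025) were called lower. The 5 cullins had estimates between −0.53 (Cul3) and 0.20 (Cul4, −0.03 after median scaling) and none was called. Of 6 genes of the p97 unfoldase, which extracts ubiquitinated proteins, the cofactors Ufd1 (−0.70, adjusted p = 0.0329) and Npl4 (−0.56, adjusted p = 0.0356) were called lower. TER94, which is p97 itself, had 1294 and 1693 in dTIP60E431Q, 2318 and 2143 in dTIP60WT and 2203 and 2189 in control larvae (−0.57, adjusted p = 0.0856) and was not called.

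Of the regulators of proteasome gene transcription 0 of 3 were called. cnc, the fly member of the Nrf family that drives proteasome genes when the protease is impaired, had 1987 and 2301 in dTIP60E431Q, 1531 and 1497 in dTIP60WT and 1648 and 1635 in control larvae. Its dTIP60E431Q arrays lay above all others, but the difference of 0.38 (0.15 after median scaling) missed the threshold (95% interval 0.03 to 0.73, adjusted p = 0.111, limma). Its partner maf-S was at 0.14 (−0.09 after median scaling) and its inhibitor Keap1 at −0.04.

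Other families of stable complexes, read for the same contrast, did not share one direction. The chaperonin, the folding machine of actin and tubulin, had 7 of 8 subunits called lower and a median of −0.74, beside 11.7% of all probe sets called lower and 11.9% higher. Mitochondrial ribosomal proteins had 56 of 69 called lower and a median of −1.05. Cytosolic ribosomal proteins had 0 of 37 called lower and 5 higher, with a median of −0.02 (−0.26 after median scaling, 0.14 after quantile normalization), and the vacuolar ATPase had 0 of 30 lower and 2 higher, with a median of −0.08. Within the range of level of the 26 subunits, where 33.9% of all probe sets were called lower, 4 of 5 chaperonin, 38 of 47 mitochondrial ribosomal, 0 of 3 cytosolic ribosomal and 0 of 2 vacuolar ATPase genes were called lower. Each family was counted whole, without setting paralogs apart as was done for the proteasome, so its counts are not like for like with those of the 26. Limma intervals of single genes reached −3.11 and 2.37 in the vacuolar ATPase and −1.14 and 2.41 in cytosolic ribosomal proteins. Those of the 26 subunits lay between −1.40 and −0.01. The counts and medians of the families stand beside each other as description. The difference between the proteasome and any of the families was not tested.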

How the data were processed

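Total RNA of 6 pools of 35 whole larvae was hybridized to 1 Affymetrix Drosophila Genome 2.0 array each. The authors quantified the arrays with GCOS and normalized and summarized them in dChip as model-based expression indexes, and they deposited 1 linear intensity per probe set and array; versions, the probe model and the baseline array are not given in the sources used here. No detection calls and no depth belong to such values, so the number of arrays limits the precision. The deposited intensities ran down to 0.69, and the floor of the scale is unknown.

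After 183 Affymetrix control probe sets were removed, the log2 intensities of 18769 probe sets, with no pseudocount or filter, were fitted with limma 3.58.1 (R 4.3.3) to all 6 arrays, with genotype as the factor. P-values were adjusted by Benjamini-Hochberg across the whole table, and calls were made below 0.05. Genes came from the platform annotation (13647 probe sets with 1 symbol, 402 with several, 4720 with none, unnamed here), with synonyms updated through a RefSeq gene table (Release 6). Any member of the 40 could be named, together with genes of the pathway and marker lists. Members and lists were chosen with earlier results of these data known. The fit was tested on simulated data.

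The labels call the arrays biological replicates, and each is a pool, so p-values measure the spread between pools. The replicate numbers 1 and 2 recur in each genotype, but same-numbered arrays did not deviate together (correlations of their deviations from the genotype means −0.013, −0.012 and −0.007), so the fit used no block. Alternatives were the 2 genotypes alone, a replicate block, limma's trend and robust options, median scaling, quantile normalization, a floor at the 20th percentile, a pseudocount of 16, a filter at the 40th percentile, averaged probe sets, a fold of at least 2, the methods' t-test and each array left out.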

Additional observations from a re-analysis of the deposited data

How the results depend on the processing

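All 26 core and regulatory subunits were below 0 in dTIP60E431Q against control and against dTIP60WT in each of 16 fits. Since their arrays did not overlap, only median scaling and quantile normalization could have changed these signs. Of the paralogs not called, 6 of 12 against control and 6 of 14 against dTIP60WT changed sign in some fit. As analysed in the report, dTIP60E431Q against control gave 7 core, 13 regulatory, 2 paralog and 12 pathway calls and 4432 over all probe sets, and against dTIP60WT 8, 13, 0, 10 and 4498. Most alternatives for the pathway counts were added after seeing the data.

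With the 2 genotypes fitted alone the counts against control were 1 core, 6 regulatory, 1 paralog and 4 pathway calls and 2754 over all probe sets, and against dTIP60WT 3 core, 7 regulatory and 4 pathway calls. With a replicate block, although the numbers do not pair the pools, they were 0 core, 6 regulatory, 4 pathway and 2675 against control, and 1, 7, 3 and 2955 against dTIP60WT. The 1 call of dTIP60WT against control, Tip60, was lost in both (0).

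Several settings gave more core calls against control: 12 with the trend and robust options, median scaling, the floor and the filter, and 11 with the pseudocount. Paralog calls against control were 4 with trend and robust, 1 with the floor, 4 with the pseudocount and 5 with the filter. Against dTIP60WT paralog calls were 1 with trend and robust, median scaling or quantile normalization and 2 with the pseudocount or the filter. Pathway calls against dTIP60WT were 20 with trend and robust or the filter, 16 with median scaling, 18 with quantile normalization and 19 with the floor. Trend and robust gave 31 calls for dTIP60WT against control. Median scaling made 67.2% of the calls against control lower, where the deposited values made 49.5%, and 65.3% against 49% in the comparison with dTIP60WT.

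Asking also for a fold of at least 2 left 0 core, 2 regulatory, 1 paralog and 0 pathway calls and 2698 over all probe sets against control, and 0 core, 2 regulatory, 1 pathway and 2783 against dTIP60WT. The methods' t-test, unadjusted and with a fold over 2, gave 0 core and 2 regulatory calls in either comparison. With unequal variances it gave 0 paralogs, 0 pathway genes and 1558 probe sets against control, 1 pathway gene and 1553 against dTIP60WT, and 98 for dTIP60WT against control. With equal variances these were 1, 0 and 2420, then 1 and 2467, and 217. After Benjamini-Hochberg unequal variances gave 0 throughout. Equal variances gave 2 core, 1 regulatory, 0 paralog and 1 pathway calls and 455 probe sets against control, 4, 1, 0 pathway and 621 against dTIP60WT, and 4 for dTIP60WT against control.

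Leaving out 1 array at a time gave 0 to 1 core, 0 to 6 regulatory, 0 to 1 paralog and 0 to 4 pathway calls and 776 to 2754 over all probe sets against control. Against dTIP60WT it gave 0 to 3, 0 to 7, 0, 0 to 4 and 661 to 3112, and 0 for dTIP60WT against control. The genotype left with 1 array was assumed to vary like the others. With so few arrays the calls depend on the estimated spread, and without detection calls the signal of the paralogs over background is unknown. For the other changes the cause was not tested.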
